A study of Mus musculus with 12 samples.

Results

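The genes described here are 40 genes of the cell division cycle, listed by name with earlier results of these data known: G1 cyclins and cyclin-dependent kinases (CDKs), CDK inhibitors, genes of DNA replication, mitotic cyclins and kinases, and genes of the spindle checkpoint. Of these, 39 had a probe set with 1 gene symbol among 18194 such genes, and Ccnb1 (cyclin B1) had none here. Where a gene had several probe sets, the brightest on average was taken, and values are log2 signals after robust multichip average (RMA) normalization. Probe sets bind with different strength, so the order of signals between genes is not an order of transcript levels. Glomeruli, the filtration units of the kidney, were isolated with magnetic beads from male mice of 6 to 8 weeks. The labels give C57BL/6J for the wildtype mice, and the methods name both mutant strains as B6.129. The genotypes were wildtype, Tnfr1-/- (lacking TNF receptor 1, allele Tnfrsf1atm1Mak), Tnfr2-/- (lacking TNF receptor 2, allele Tnfrsf1btm1Mwm) and Tnfr1,2-/- (carrying both alleles), with 3 arrays each, and the methods state that Tnfr1,2-/- and control mice came from crosses of the single mutants. The alleles are present in every cell of the mice. All cultures of 5000 glomeruli were serum starved and then kept for 12 hours with murine TNF at 50 ng/ml. Before starvation, the methods describe culture of isolated glomeruli in medium with serum and insulin, so these were not freshly isolated glomeruli. Unstimulated glomeruli were not analysed here, so every value is a level under TNF in culture. The methods name independent preparations for each genotype without saying that they came from different mice, so p-values measure the spread between preparations.

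Entry into the cell cycle is driven by D-type cyclins with Cdk4 or Cdk6 and by cyclin E with Cdk2, which release E2F transcription factors from retinoblastoma proteins, while CDK inhibitors of the Cip/Kip and INK4 families hold the kinases back. S phase genes license and copy the DNA, and mitotic genes are transcribed together later in the cycle under the DREAM and MuvB complexes. In the adult glomerulus most cells are quiescent: podocytes rarely divide and express high levels of Cdkn1b and Cdkn1c, whereas mesangial and endothelial cells can re-enter the cycle after injury.

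Promoter sequence is shown for 3 mitotic genes that moved together across the arrays and for 2 members that did not follow them, Plk2 and Cdk6. Each stretch holds the 150 bases before the annotated start, 5′ to 3′ on the gene's strand, from RefSeq (GRCm38.p6). Cdk1 lies at chr10:69352913-69353062 (minus strand), Mki67 at chr7:135716380-135716529 (minus), Ccnb2 at chr9:70421555-70421704 (minus), Plk2 at chr13:110394894-110395043 (plus) and Cdk6 at chr5:3343743-3343892 (plus). Capitals mark matches, on either strand, to the cell cycle homology region (CHR, TTTGAA or TTCGAA), the CCAAT box (CCAAT) and an E2F motif (TTTNNCGC), and no matches of different motifs overlapped in these stretches.
Cdk1: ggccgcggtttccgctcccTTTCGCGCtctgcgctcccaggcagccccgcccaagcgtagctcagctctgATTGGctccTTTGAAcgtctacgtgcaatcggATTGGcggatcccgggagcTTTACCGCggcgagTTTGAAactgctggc
Mki67: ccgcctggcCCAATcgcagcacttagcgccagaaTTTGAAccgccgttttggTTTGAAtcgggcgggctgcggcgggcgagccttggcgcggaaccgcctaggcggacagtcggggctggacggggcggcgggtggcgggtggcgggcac
Ccnb2: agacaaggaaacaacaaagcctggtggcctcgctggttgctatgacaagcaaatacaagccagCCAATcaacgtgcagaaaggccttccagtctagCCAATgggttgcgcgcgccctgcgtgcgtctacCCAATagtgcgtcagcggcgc
Plk2: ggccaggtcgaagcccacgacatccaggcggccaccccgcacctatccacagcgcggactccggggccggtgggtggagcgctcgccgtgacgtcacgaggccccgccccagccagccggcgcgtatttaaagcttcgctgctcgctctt
Cdk6: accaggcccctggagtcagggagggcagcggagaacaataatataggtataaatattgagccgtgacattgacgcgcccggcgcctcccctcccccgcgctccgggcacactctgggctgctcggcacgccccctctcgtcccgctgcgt

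A promoter window was at hand for 33 of the 40 genes. Among the mitotic and spindle genes other than Plk2, 5 of 15 with a window (Cdk1, Cdc20, Kif11, Mki67 and Top2a) held a CHR match, which is 33.3%, against 1 of 18 other members (5.56%) and 11.2% of all 27025 genes with a window. The CCAAT box was matched in 13 of these 15 genes (86.7%), in 9 of 18 other members (50%) and in 27.7% of all genes. The E2F motif was matched in 5 of the 33 members (15.2%), among them Cdc6, Mcm5 and Mcm6, and in 3.19% of all genes. The stretches of Plk2 and Cdk6 held none of these letters. These are matches of letters and no test of binding.

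Signals of the targeted receptors had lower means in the knockouts, and the means of Tnfrsf1b there were under a log2 value of 6, the limit used for dim probe sets. Tnfrsf1a had a mean of 10.56 ± 0.28 (SD, n = 3) in wildtype, 9.29 ± 0.28 in Tnfr1,2-/- and 9.74 ± 0.47 in Tnfr1-/- glomeruli, and passed the limma test in Tnfr1,2-/- (adjusted p = 0.0228) but not in Tnfr1-/- glomeruli (adjusted p = 0.217). Tnfrsf1b had a mean of 7.63 ± 0.20 in wildtype, 5.48 ± 0.10 in Tnfr1,2-/- (adjusted p = 0.00616) and 5.33 ± 0.36 in Tnfr2-/- glomeruli (adjusted p = 0.125). Among defining markers of glomerular cells, Nphs1 (podocytes) ranged from 7.47 to 9.20 over the 12 arrays. Pecam1 and Ehd3 (endothelium) ranged from 7.37 to 10.26 and from 8.53 to 9.75. Pdgfrb and Itga8 (mesangial cells) ranged from 11.63 to 12.44 and from 10.31 to 12.11. Of the tubular markers, Lrp2 (proximal tubule) ranged from 3.47 to 5.92 and Umod from 5.75 to 8.34. The macrophage markers Csf1r and Adgre1 ranged from 8.37 to 9.69 and from 5.83 to 7.13. The lymphocyte markers Cd79a and Cd3e ranged from 5.30 to 7.81 and from 5.91 to 6.55. The arrays fell into 2 sets by the difference between the 3′ and 5′ control probe sets of β-actin. It was 0.88 ± 0.11 (SD, n = 7) in the first set and 2.00 ± 0.20 (SD, n = 5) in the second, which held replicate 3 of each genotype and Tnfr1,2-/- replicate 2. Over the 12 arrays it was lowest on wildtype replicate 2 (0.67) and highest on Tnfr1,2-/- replicate 3 (2.30). Of the 39 members, 4 (10.3%) did not overlap between these sets (17.3% of all genes): Ccnd3, Ccne2, Plk1 and Rrm2.

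No member was called in any comparison at an adjusted p under 0.05 (limma, Benjamini-Hochberg over all genes) and a difference of at least 1.5-fold. For Tnfr1,2-/- against wildtype 1.3% of all genes were called, for Tnfr1-/- 1.2% and for Tnfr2-/- 0%. For Tnfr1,2-/- against Tnfr2-/- 1.39% were called, and against Tnfr1-/- 0.0055%. For the Tnfr1 locus (6 arrays without against 6 arrays with the receptor, averaged over both Tnfr2 genotypes) 2.52% of all genes were called, for the Tnfr2 locus 0.0275% and for their interaction 0%. Significance analysis of microarrays (SAM, q under 5% and 1.5-fold), run on the 5 comparisons of 2 genotypes, called 0 members as well. At an unadjusted limma p under 0.05, 3 members passed for Tnfr1,2-/- against wildtype (8.44% of all genes), 2 for Tnfr1-/- (6.35%) and 0 for Tnfr2-/- (0.704%). In the other comparisons 2 members passed for Tnfr1,2-/- against Tnfr2-/- (8.54%), 4 against Tnfr1-/- (2.59%), 5 for the Tnfr1 locus (11%), 6 for the Tnfr2 locus (0.967%) and 0 for the interaction (1.35%). Comparisons that share a genotype share its arrays and are not independent.

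The absence of calls is limited by the spread among preparations. The median standard deviation within genotypes was 0.34 for the members and 0.24 for all genes. For the Tnfr1 locus the 95% interval lay within a 1.5-fold difference in both directions for 21 of 39 members (53.8%), against 70.6% of all genes, so for the other 18 members a 1.5-fold difference in at least 1 direction lay inside the interval. For Tnfr1,2-/- against wildtype it lay within these bounds for 28.2% of members, against 47.8% of all genes.

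**Figure D1:**
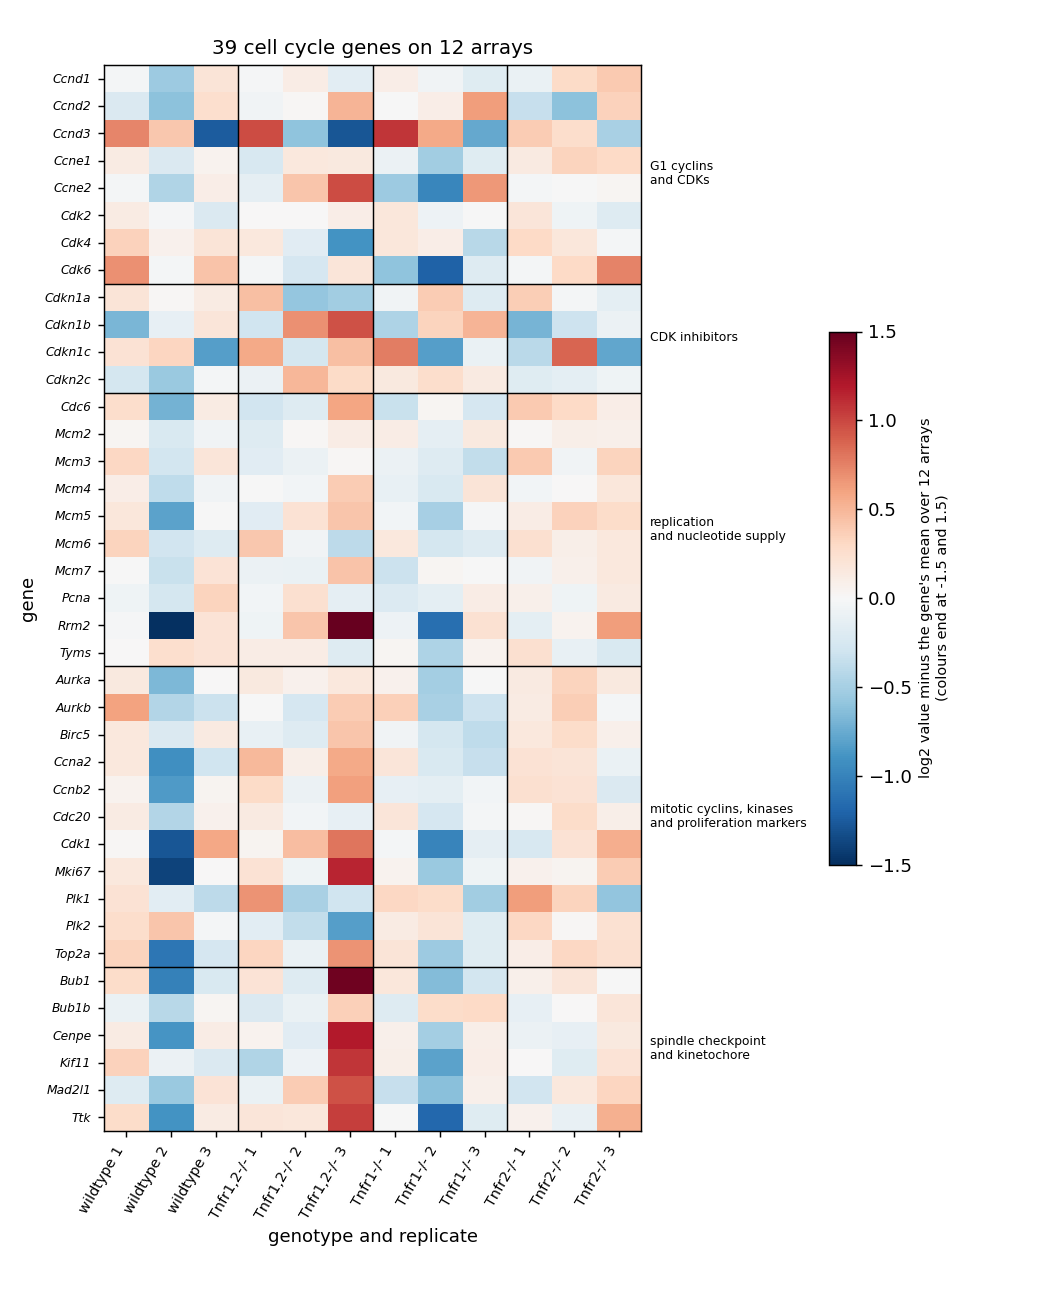
Deviation of each of the 39 genes (rows, grouped by role) from its own mean over 12 arrays (columns, by genotype and replicate), on the log2 scale. Most rows of the mitotic and spindle groups are blue on wildtype replicate 2 and Tnfr1-/- replicate 2 and red on Tnfr1,2-/- replicate 3.

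Among the G1 cyclins and CDKs, Cdk6, a kinase partner of the D-type cyclins, had the smallest p of any member against wildtype. It measured 10.64, 9.92 and 10.38 on the wildtype arrays and 9.35, 8.74 and 9.77 on the Tnfr1-/- arrays. All 3 Tnfr1-/- arrays lay below all 3 wildtype arrays, and the log2 difference was -1.03 (SE 0.28, limma adjusted p = 0.168). Tnfr1,2-/- glomeruli measured 9.93, 9.71 and 10.14, and Tnfr2-/- glomeruli 9.93, 10.25 and 10.70. The Tnfr1,2-/- arrays overlapped wildtype (-0.39, SE 0.28, adjusted p = 0.773), and over the Tnfr1 locus the difference was -0.70 (SE 0.20, adjusted p = 0.121). The call for Cdk6 turned on how the arrays were blocked. A fit of all 12 arrays was blocked by replicate number. The numbers were taken to pair wildtype and Tnfr1-/- arrays, but not the Tnfr1,2-/- arrays that also enter this fit. With this block limma's adjusted p was 0.02 for Tnfr1-/- against wildtype at the same difference, and Cdk6 was the 1 member called, beside 2.4% of all genes. With the array set as a block the adjusted p was 0.0402 (1 member, 2.58% of all genes). For the Tnfr1 locus Cdk6 was the 1 member called in the fit blocked by array set (-0.76, SE 0.17, adjusted p = 0.0218, 3.58% of all genes), with the replicate block (adjusted p = 0.0137, 4.01%) and with array weights (adjusted p = 0.049, 3.93%). Both blocks and the weights raised the share called among all genes as well. Within the first set Tnfr1-/- differed from wildtype by -1.24 (2 arrays each), and within the second by -0.62 (1 array each). A second, dimmer probe set of Cdk6 gave -0.96 for Tnfr1-/- and -0.76 for the Tnfr1 locus. Probe sets of a gene did not always go the same way: of 17 members with at least 2 probe sets averaging 6 or more, all had 1 sign in 11 for Tnfr1,2-/- against wildtype and in 12 for the Tnfr1 locus. They differed in sign for Bub1b, Ccnd1, Ccne1, Mcm2, Mcm5 and Mcm7 in the first and for Ccnd2, Cdc20, Mcm2, Mcm6 and Rrm2 in the second comparison.

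Ccne1 (cyclin E1, partner of Cdk2) measured 7.31, 7.51 and 7.48 in Tnfr2-/- and 7.30, 6.96 and 7.24 in wildtype glomeruli. These arrays did not overlap, but by a margin far smaller than the spread, and the log2 difference was 0.27 (SE 0.17, limma adjusted p = 1). It measured 7.09, 6.65 and 7.003 in Tnfr1-/- and 6.93, 7.33 and 7.33 in Tnfr1,2-/- glomeruli, which overlap wildtype. Ccne1 was the 1 member without overlap for Tnfr2-/- against wildtype, where 4.94% of all genes did not overlap. Its relative Ccne2 was among the dimmest members, from 4.51 to 5.49 in the first and from 5.52 to 6.47 in the second array set. Ccnd3 (cyclin D3) had a range of 2.36 log2 units over the arrays that followed the array sets and not the genotypes: 9.16 to 9.97 in the first set and 7.61 to 8.41 in the second. Ccnd1, Ccnd2, Cdk2 and Cdk4 overlapped in every comparison with wildtype, with log2 differences between -0.50 (Cdk4, Tnfr1,2-/-) and 0.43 (Ccnd2, Tnfr1-/-).

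Among the CDK inhibitors, Cdkn2c (p18INK4c, an inhibitor of Cdk4 and Cdk6) measured 7.61, 7.32 and 7.85 in wildtype, 8.03, 8.15 and 8.01 in Tnfr1-/-, 7.79, 8.38 and 8.17 in Tnfr1,2-/- and 7.69, 7.73 and 7.81 in Tnfr2-/- glomeruli. The Tnfr1-/- arrays were all above the wildtype arrays (0.47, SE 0.17, limma adjusted p = 0.468), whereas 1 Tnfr1,2-/- array lay within the wildtype range (0.52, SE 0.17, adjusted p = 0.328). With array weights Cdkn2c and Plk2 were called for Tnfr1,2-/- against wildtype (Cdkn2c 0.79, SE 0.14, limma adjusted p = 0.00591), beside 5.72% of all genes. For the Tnfr1 locus the log2 difference was 0.42 (SE 0.12, adjusted p = 0.128). With Cdk6, Cdkn2c made up the 2 members that did not overlap for Tnfr1-/- against wildtype, where 11% of all genes did not overlap. Over the Tnfr1 locus no member was free of overlap (2.98% of all genes).

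Cdkn1b (p27Kip1, an inhibitor of CDK2 complexes) measured 8.84, 9.40 and 9.70 in wildtype and 9.23, 10.21 and 10.48 in Tnfr1,2-/- glomeruli, with overlap (0.66, SE 0.36, limma adjusted p = 0.667). Tnfr1-/- arrays measured 9.06, 9.85 and 10.03, and Tnfr2-/- arrays 8.82, 9.22 and 9.43. Cdkn1b also moved with the array sets, with a mean of 9.20 in the first and 9.97 in the second, and Tnfr1,2-/- has 2 of its 3 arrays in the second. With the array set as a block the difference was 0.43 (SE 0.24, limma adjusted p = 0.561). In the fit blocked by replicate number, Cdkn1b and Plk2 were the 2 members called for Tnfr1,2-/- against wildtype, beside 3.28% of all genes, and against Tnfr2-/- (3.51%). The blocked adjusted p of Cdkn1b was 0.0306 and 0.00876, though the numbers were not taken to pair Tnfr1,2-/- arrays with wildtype. Cdkn1b and Ccnd2 lie on chromosome 6 within 10 Mb of Tnfrsf1a, the targeted gene, and the part of that position in their values was not tested. Cdkn1a (p21Cip1, induced by p53), among the members with the highest mean, ranged from 11.29 to 12.33 over the arrays, with log2 differences from wildtype of -0.33 in Tnfr1,2-/- and -0.07 in Tnfr1-/- glomeruli. Cdkn1c (p57Kip2, high in podocytes) ranged from 10.44 to 12.13 and overlapped in all comparisons with wildtype.

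**Figure D2:**
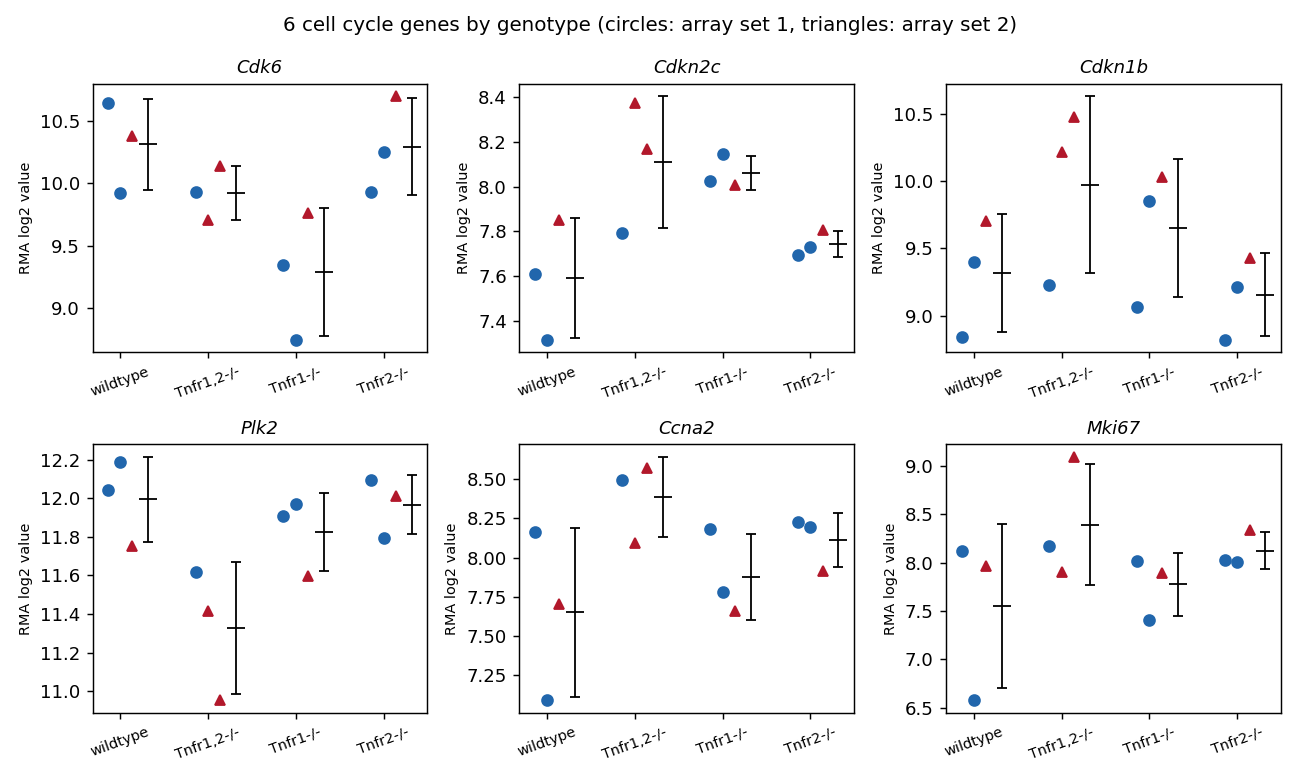
RMA log2 values of 6 genes on each array by genotype, with circles for the first and triangles for the second array set, and the mean ± SD of 3 arrays beside them. Cdk6 is low in Tnfr1-/- and Plk2 in Tnfr1,2-/- glomeruli, and the lowest Mki67 and Ccna2 values are those of wildtype replicate 2.

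Of 10 members that act in DNA replication, 8 had a higher and 2 a lower mean in Tnfr1,2-/- than in wildtype glomeruli, with a median log2 difference of 0.09. Mcm3, a subunit of the replicative helicase, measured 8.63, 8.04 and 8.50 in wildtype, 8.23, 8.13 and 7.95 in Tnfr1-/-, 8.15, 8.23 and 8.33 in Tnfr1,2-/- and 8.71, 8.27 and 8.65 in Tnfr2-/- glomeruli. The difference for the Tnfr1 locus was -0.30 (SE 0.13, limma adjusted p = 0.393), with overlap. Mcm5, another helicase subunit, measured 9.11, 8.13 and 8.93 in wildtype and 9.06, 9.29 and 9.21 in Tnfr2-/- glomeruli (0.46, SE 0.25, adjusted p = 1), where the wildtype mean is lowered by replicate 2. It was 8.90, 8.45 and 8.92 in Tnfr1-/- and 8.77, 9.16 and 9.36 in Tnfr1,2-/- glomeruli. Pcna, the sliding clamp of DNA polymerases, varied little, from 11.81 to 12.42, and Mcm2 varied least of all members, over 0.38 log2 units.

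Rrm2, the regulated subunit of ribonucleotide reductase, was named after its values were seen, because it varied most of all members, over 3.12 log2 units. It measured 9.07, 7.47 and 9.29 in wildtype, 9.01, 9.50 and 10.59 in Tnfr1,2-/-, 9.00, 7.95 and 9.32 in Tnfr1-/- and 8.94, 9.13 and 9.70 in Tnfr2-/- glomeruli. The difference between Tnfr1,2-/- and wildtype was 1.09 (SE 0.53, limma adjusted p = 0.623), and every array of the second set was above every array of the first. Tyms (thymidylate synthase) had the lowest mean of the members, 3.53, and all its 4 probe sets were near the background of the arrays, so its differences have no firm meaning. It measured 3.53, 3.79 and 3.74 in wildtype and 3.56, 3.07 and 3.58 in Tnfr1-/- glomeruli, and its probe set was 1 of 4 members' (with Ccne2, Kif11 and Ttk) that did not reach a log2 value of 6 on 3 arrays.

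Among the mitotic genes, Ccna2 (cyclin A2, which acts in S phase and at the entry to mitosis) had the smallest p of those with a higher mean in Tnfr1,2-/- glomeruli. It measured 8.16, 7.09 and 7.70 in wildtype, 8.49, 8.09 and 8.57 in Tnfr1,2-/-, 8.18, 7.78 and 7.66 in Tnfr1-/- and 8.23, 8.19 and 7.91 in Tnfr2-/- glomeruli. Tnfr1,2-/- overlapped wildtype, and the difference was 0.74 (SE 0.25, limma adjusted p = 0.358). Mki67, the antigen of dividing cells, measured 8.12, 6.57 and 7.96 in wildtype and 8.17, 7.90 and 9.10 in Tnfr1,2-/- glomeruli (0.84, SE 0.40, adjusted p = 0.612). Tnfr1-/- arrays measured 8.02, 7.41 and 7.90 and Tnfr2-/- arrays 8.02, 8.00 and 8.34. Apart from wildtype replicate 2, Tnfr1-/- replicate 2 and Tnfr1,2-/- replicate 3, its values lay between 7.90 and 8.34 in all genotypes, and without these 3 arrays the difference was -0.0020. These arrays were singled out by the values of mitotic genes, Mki67 included, so a smaller difference without them was largely fixed in advance. Top2a (topoisomerase II alpha) measured 8.01, 6.59 and 7.43 in wildtype and 8.00, 7.58 and 8.36 in Tnfr1,2-/- glomeruli. It measured 7.87, 7.14 and 7.50 in Tnfr1-/- and 7.78, 7.99 and 7.92 in Tnfr2-/- glomeruli, and wildtype replicate 2 was lowest. Ccnb2 (cyclin B2) measured 6.99, 6.08 and 6.97 in wildtype and 7.22, 6.84 and 7.55 in Tnfr1,2-/- glomeruli (0.53, SE 0.26, adjusted p = 0.618).

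Plk2, a polo-like kinase with roles in centriole duplication and in the response to stress, went the other way from the other mitotic genes. It measured 12.04, 12.19 and 11.75 in wildtype, 11.62, 11.41 and 10.95 in Tnfr1,2-/-, 11.91, 11.97 and 11.60 in Tnfr1-/- and 12.09, 11.80 and 12.01 in Tnfr2-/- glomeruli. All Tnfr1,2-/- arrays lay below all wildtype arrays (-0.67, SE 0.19, limma adjusted p = 0.205), and Plk2 was the 1 member without overlap in this comparison, where 12.4% of all genes did not overlap. Its adjusted p was 0.0433 in the fit blocked by replicate number, 0.12 in that blocked by array set and 0.0131 with array weights. Against Tnfr2-/- the difference was -0.64 (SE 0.19, adjusted p = 0.238; 0.0493 with the replicate block and 0.0426 with array weights, which called Plk2 alone beside 4.18% of all genes), and for Tnfr1-/- against wildtype -0.17 (SE 0.19, adjusted p = 1). Within the first array set Tnfr1,2-/- and wildtype differed by -0.50 and within the second by -0.57. Plk1, the polo-like kinase of mitotic entry, split by array set instead, from 6.74 to 7.57 in the first and from 6.30 to 6.60 in the second.

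The 6 genes of the spindle checkpoint and kinetochore had a median log2 difference of 0.58 between Tnfr1,2-/- and wildtype, and all 6 were higher, without a call. Bub1, the checkpoint kinase, was named after its values were seen. It measured 6.48, 5.19 and 5.98 in wildtype and 6.41, 6.01 and 7.67 in Tnfr1,2-/- glomeruli (0.82, SE 0.41, limma adjusted p = 0.638). Tnfr1,2-/- replicate 3 held the highest and wildtype replicate 2 the lowest value, and the remaining arrays of both genotypes lay between 5.98 and 6.48. These 2 arrays were singled out by values of mitotic and spindle genes, Bub1 included. Kif11, the motor that separates the spindle poles, was dim, from 3.91 to 5.78 over all arrays.

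Mitotic and spindle genes went up and down together from array to array. Plk2 was left out of this group after its values were seen. For the 16 other members of these groups, all 16 were below their own mean on wildtype replicate 2 and 14 were below it on Tnfr1-/- replicate 2, whereas 14 were above it on Tnfr1,2-/- replicate 3. The mean deviation was -0.71 on wildtype replicate 2, -0.45 on Tnfr1-/- replicate 2 and 0.65 on Tnfr1,2-/- replicate 3, and between -0.12 and 0.17 on the other 9 arrays. The lowest of 12 values was that of wildtype replicate 2 for 10 of these genes, and the highest that of Tnfr1,2-/- replicate 3 for 12. In 36 other mitosis genes that are not members, the mean deviations on these arrays were -0.56, -0.51 and 0.65. Over all genes they were -0.022, -0.019 and -0.017. RMA forces the arrays to a common distribution, which keeps these means small, so they do not show that a shift is particular to mitotic genes. In whole glomeruli, fewer dividing cells and less RNA per dividing cell cannot be told apart.

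**Figure D3:**
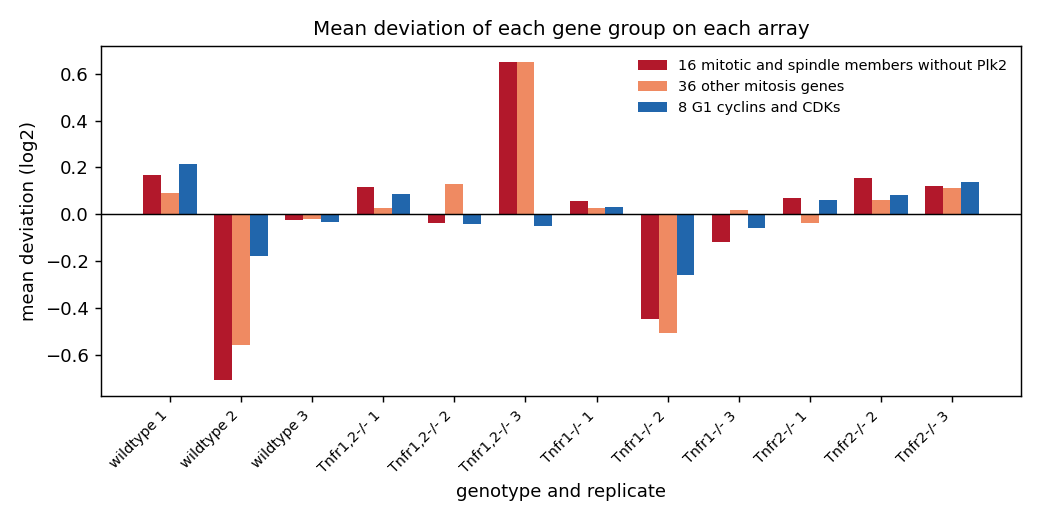
Mean deviation (log2) of 16 mitotic and spindle members, 36 other mitosis genes and 8 G1 cyclins and CDKs on each of the 12 arrays, from each gene's mean over the arrays. The first 2 groups are lowest on wildtype replicate 2 (-0.71 and -0.56) and highest on Tnfr1,2-/- replicate 3 (0.65 for both).

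Markers of other cells also differed on these arrays. On wildtype replicate 2, 4 of 4 podocyte, 5 of 6 endothelial, 5 of 6 tubular, 3 of 5 parietal epithelial and 4 of 5 mesangial markers were below their own mean (mean deviation -0.38, -0.49, -0.56, -0.80 and -0.29), and 5 of 6 macrophage markers were above it (0.44). On Tnfr1-/- replicate 2 podocyte (-0.93) and parietal (-0.53) markers were low, with 6 of 6 endothelial (0.57), 5 of 6 macrophage (0.48), 4 of 5 mesangial (0.22) and 3 of 5 lymphocyte (0.41) markers above their mean. On Tnfr1,2-/- replicate 3, 4 of 5 parietal (0.51), 4 of 5 mesangial (0.17) and 3 of 4 podocyte (0.15) markers were above their mean. Below it were 4 of 6 endothelial (-0.32), 4 of 6 macrophage (-0.18) and 3 of 5 lymphocyte (-0.21) markers. Tubular markers were mixed, with 4 of 6 below their mean and a mean deviation of 0.20. The summed level of the podocyte markers ranged from 13.55 to 13.92 (log2) in wildtype and from 14.13 to 14.45 in Tnfr1,2-/- glomeruli, that of the macrophage markers from 11.94 to 12.61 and from 11.41 to 11.95. Summed parietal markers ranged from 10.59 to 11.30 in wildtype and from 10.74 to 11.56 in Tnfr1,2-/- glomeruli. The β-actin difference was also lowest on wildtype replicate 2 (0.67) and highest on Tnfr1,2-/- replicate 3 (2.30). On Tnfr1-/- replicate 2 it was 0.92, within the range of its array set. The parts of cell composition and of the β-actin difference in the mitotic values were not tested.

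The differences between genotypes changed with the arrays left out. These 3 arrays were singled out by the values of the same genes. Leaving out the low wildtype or the high Tnfr1,2-/- array was therefore largely bound to shrink the difference between these genotypes. Tnfr1-/- replicate 2 does not enter that difference. With all arrays the median log2 difference of the 16 genes between Tnfr1,2-/- and wildtype was 0.55, and all 16 were higher, a count that leaving out Plk2 partly fixed: with Plk2 the median was 0.53 and 16 of 17 were higher. For the 16 genes it was 0.18 without wildtype replicate 2 (13 higher), 0.30 without Tnfr1,2-/- replicate 3 (13 higher) and -0.02 without the 3 arrays together (6 higher). The median rose to 0.63 without wildtype replicate 1 and to 0.67 without wildtype replicate 3. It was 0.57 without Tnfr1,2-/- replicate 1 and 0.63 without Tnfr1,2-/- replicate 2. Without wildtype replicate 2 the median for Tnfr1-/- against wildtype turned from 0.06 to -0.25, with 2 of 16 higher. For Tnfr2-/- against wildtype it went from 0.29 to 0.04. Leaving out the low wildtype array was largely bound to lower both of these medians as well. Over all 39 members the median for Tnfr1,2-/- against wildtype was 0.17 (32 higher), beside -0.0012 for all genes, and without the 3 arrays -0.03 (15 higher).

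**Figure D4:**
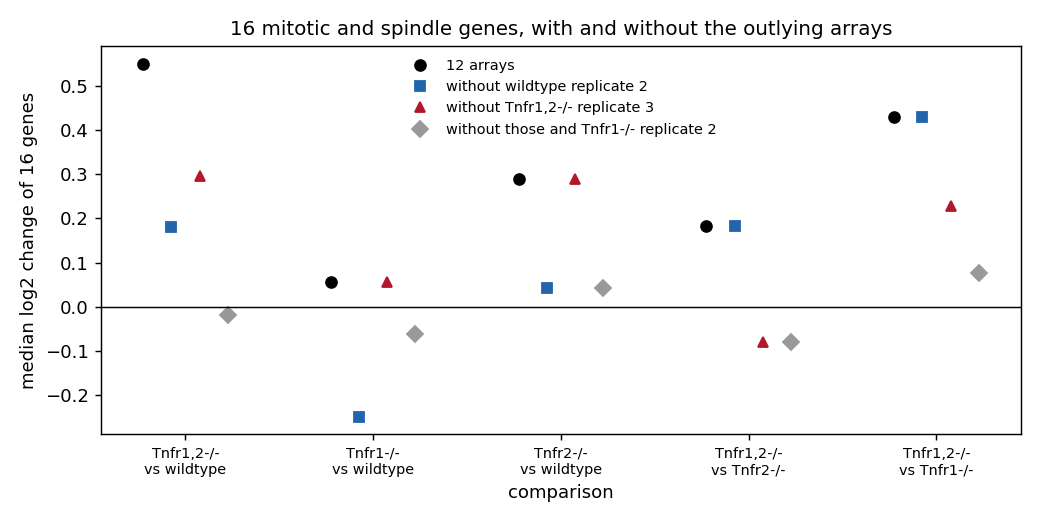
Median log2 difference of 16 mitotic and spindle genes in 5 comparisons of 2 genotypes, with 12 arrays and with arrays left out. For Tnfr1,2-/- against wildtype the median goes from 0.55 with all arrays to -0.02 without wildtype replicate 2, Tnfr1-/- replicate 2 and Tnfr1,2-/- replicate 3. These arrays were singled out by the values of the same genes.

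The same arrays bear on the Tnfr2 locus. There 33 of 39 members had a higher mean without Tnfr2, with a median log2 difference of 0.17, and the 6 members with an unadjusted limma p under 0.05 were all higher: Top2a (0.51), Ccna2 (0.49), Ccne1 (0.27), Mcm5 (0.40), Mad2l1 (0.48) and Ttk (0.63), each at an adjusted p of 1. Mad2l1 and Ttk act in the spindle checkpoint. The 2 low arrays carry an intact Tnfr2 gene and the high array lacks it. All 3 enter this comparison and were singled out by values of these genes. Leaving them out was therefore largely bound to shrink the difference and the number of members passing. Without wildtype replicate 2 a single member had an unadjusted p under 0.05, and without the 3 arrays 0 members (0.473% and 0.577% of all genes), the latter with a median of 0.04 and 27 higher. With any 1 array left out this count lay between 1 and 11, and the highest was without wildtype replicate 3 (1.54% of all genes). The comparisons of Tnfr2-/- with wildtype and of Tnfr1,2-/- with Tnfr1-/- share no arrays, and 30 of 39 members had the same sign in both (76.9%, beside 46.9% of all genes), where wildtype replicate 2 enters the first comparison and the other 2 of these arrays the second.

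For the Tnfr1 locus the members split evenly, with 19 higher and 20 lower and a median of -0.01. The 5 members with an unadjusted limma p under 0.05 were Cdk6, Cdkn2c, Plk2, Mcm3 and Cdkn1b, of which Plk2 had been left out of the mitotic group by its values and the others are not mitotic genes. Plk2 had a difference of -0.40 (SE 0.14, adjusted p = 0.216) and Cdkn1b of 0.57 (SE 0.25, adjusted p = 0.42). This p was passed by 12.8% of members, close to the 11% of all genes. Tnfr1-/- against wildtype and Tnfr1,2-/- against Tnfr2-/- share no arrays, and 24 of 39 members had the same sign in both (61.5%, beside 58.5% of all genes).

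**Figure D5:**
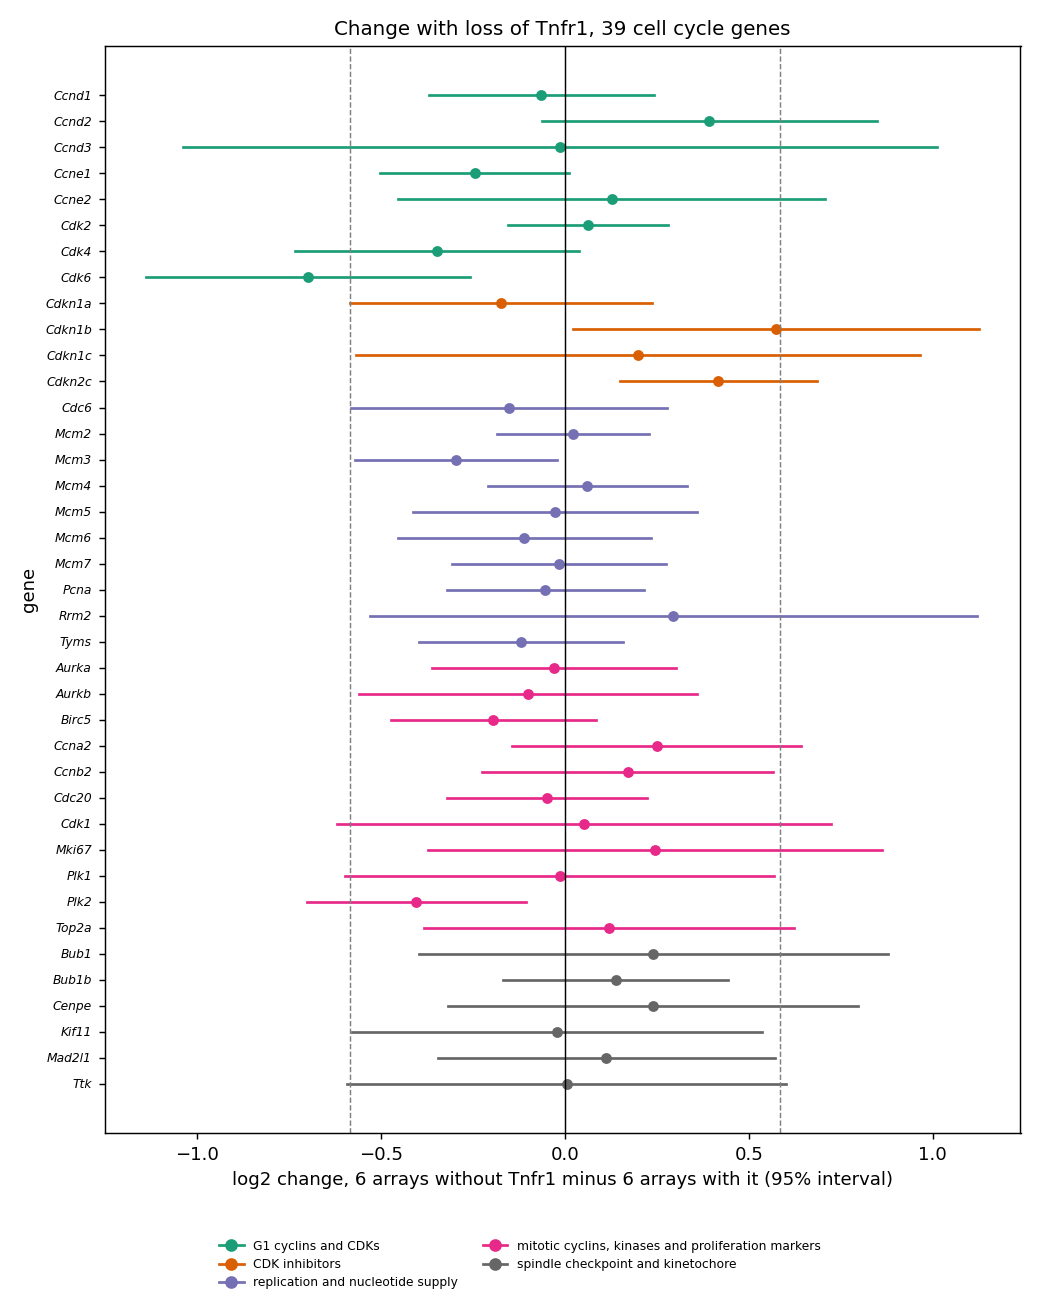
Log2 difference between the 6 arrays without and the 6 arrays with Tnfr1 for 39 genes, with the 95% interval (limma), coloured by role; dashed lines mark a 1.5-fold difference. Intervals of 5 genes (Cdk6, Cdkn2c, Plk2, Mcm3 and Cdkn1b) leave out 0, and 21 of 39 lie between the dashed lines.

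Of the wider pathway, no gene of 5 further lists was called in any comparison. These were other cyclins, CDKs and CDK inhibitors (22 measured), E2F, RB and DREAM regulators (17), other DNA replication genes (23 of 24), other mitosis genes (36) and checkpoint and p53 response genes (19 of 20). For Tnfr1,2-/- against wildtype the other mitosis genes had a median log2 difference of 0.47 with 33 of 36 higher, and 6 had an unadjusted limma p under 0.05 (8.44% of all genes). Without wildtype replicate 2 their median was 0.23, without Tnfr1,2-/- replicate 3 it was 0.24, and without the 3 arrays 0.02 with 19 of 36 higher. The other replication genes had a median of 0.12 (15 of 23 higher) and the checkpoint and p53 genes of -0.07 (9 of 19 higher). For the Tnfr1 locus the medians of the 5 lists lay between -0.14 and 0.10.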

How the data were processed

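Total RNA of 12 glomerular cultures was hybridised to Affymetrix mouse genome arrays. The authors scanned them with GCOS and normalized all 12 together with RMA Express, and the deposited table holds log2 values, used here unchanged. RMA forces the arrays to a common distribution, so a change shared by most genes cannot be seen. Array data carry no counts, and precision is limited by 3 arrays per genotype. Of 45101 probe sets, 34958 had 1 gene symbol, 932 several and 9211 none, and only the first were used. Where a gene had several probe sets, the brightest by its mean was taken. Linear models were fitted to 18194 genes with limma 3.58.1 in R 4.3.3 (lmFit and eBayes, 4 genotypes together), and p-values were adjusted over all genes of a comparison. A call needed an adjusted p under 0.05 and a 1.5-fold difference. The code was tested on simulated data.

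The members and all lists were chosen with earlier results of these data known. Members chosen by rule for single values were the 5 with the smallest p for Tnfr1,2-/- and Tnfr1-/- against wildtype and for the Tnfr1 locus. To these came the 2 for Tnfr2-/- against wildtype, the 3 highest and the 3 lowest means, Mki67 and Top2a. Of them, Pcna, Cdkn1a, Kif11 and Ccne2 are given by range only. Tyms is given on the wildtype and Tnfr1-/- arrays and Ccnb2 on the wildtype and Tnfr1,2-/- arrays. Other members are given by range or difference, or only within the counts and medians of their groups. Rrm2 and Bub1, and the patterns described for Ccnd3, Plk1, Mcm2 and Mad2l1, were chosen after their values were seen. Marker lists were podocyte, glomerular endothelium, mesangial and vascular smooth muscle, parietal epithelium, tubular epithelium, macrophage and lymphocyte. The replicate numbers were checked for pairing by correlations of same-numbered arrays, as deviations from the genotype mean. These were 0.34 to 0.72 between wildtype and Tnfr1-/- and 0.21 to 0.73 between wildtype and Tnfr2-/-. Between wildtype and Tnfr1,2-/- they were 0.61, -0.13 and 0.48 for replicates 1, 2 and 3. The numbers were therefore taken to pair wildtype with Tnfr1-/- and with Tnfr2-/- only. In these 3 genotypes replicates 1 and 2 lie in the first array set and replicate 3 in the second. Tnfr1,2-/- replicate 2 lies in the second set instead. The correlations therefore cannot tell pairing by number from a shared array set. No 2 arrays were identical (highest correlation 0.996). Promoters came from the RefSeq table (GRCm38.p6), read with a script. Alternatives covered the choice of probe set, SAM, the arrays in the fit, variance trend, array weights, fold threshold, centring, cyclic loess, a filter on dim probe sets, both blocks and each array left out.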

Additional observations from a re-analysis of the deposited data

Results flagged for a closer look

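Wildtype replicate 2 stood apart from the other 5 arrays with an intact Tnfr1 gene (wildtype and Tnfr2-/-), with a gap to its neighbour of 0.784 of the whole range for Mki67, 0.691 for Mcm5, 0.779 for the mean of 16 mitotic and spindle members, 0.831 for the mean of the replication genes, 0.685 for the mean of the mitotic group and 0.67 for the mean of the spindle group. These were 6 of 36 sets of 6 arrays examined, where chance flags about 1 in 20 at this gap (0.625), and the groups of genes overlap. Marker genes of several cell types were low on the same array, as given with the results, and the β-actin difference was lowest on it. The parts of both were not tested.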

How the results depend on the processing

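No member was called in any comparison under most settings, including SAM, no fold threshold, a 2-fold threshold, median centring, cyclic loess and the filter on dim probe sets. With each array left out in turn the number of members called was 0 to 0 in all 8 comparisons, and it was 0 without the 3 outlying arrays together, a setting chosen after seeing the data. Array weights called 2 members for Tnfr1,2-/- against wildtype (Cdkn2c and Plk2), 1 for Tnfr1,2-/- against Tnfr2-/- (Plk2) and 1 for the Tnfr1 locus (Cdk6), with 1040, 760 and 715 of all genes. The replicate block called 2 members for Tnfr1,2-/- against wildtype and 2 against Tnfr2-/- (Cdkn1b and Plk2 in both), 1 for Tnfr1-/- against wildtype and 1 for the Tnfr1 locus (Cdk6 in both), and changed no other member's call. Over all genes it called 597, 639, 437 and 730 in these comparisons, against 236, 253, 219 and 459 without the block. The array set as a block called 1 member for Tnfr1-/- against wildtype and 1 for the Tnfr1 locus (Cdk6), with 470 and 652 of all genes. Replicate 2 of Tnfr1,2-/- did not correlate with replicate 2 of wildtype (-0.13), Tnfr1-/- (-0.23) or Tnfr2-/- (-0.0046). Its replicates 1 and 3 correlated with those of the other genotypes at 0.42 to 0.61. Tnfr1,2-/- replicate 2 lies in the second array set and replicate 2 of the other genotypes in the first. Replicate number and array set cannot be told apart in these correlations. The numbers were not taken to pair the Tnfr1,2-/- arrays, so the blocked calls that involve them rest on a shared number. Of 431 values of single members under these settings and within each array set, 420 counted as unchanged. Where a test was run, this meant the same sign and the same side of the threshold. Values within 1 array set had no test. They counted as unchanged with the same sign and a distance from the main value under its SE times the square root of 3. The sign of Mki67 for Tnfr1,2-/- against wildtype reversed without the 3 arrays (-0.0020), and that of Tyms for Tnfr1-/- against wildtype with the mean of its probe sets (0.0071). The cause was not tested. Signal near background limits Tyms, Kif11, Ccne2 and Ttk.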
